A study of Drosophila melanogaster with 8 samples.

Results

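The 9 genes described here encode fly transcription factors with a basic helix-loop-helix domain joined to a PAS domain (bHLH-PAS), and 1 coactivator that works with them. They are *tango* (*tgo*), *single-minded* (*sim*), *trachealess* (*trh*), *spineless* (*ss*), *dysfusion* (*dysf*), *similar* (*sima*), *Methoprene-tolerant* (*Met*), *germ cell-expressed* (*gce*) and *taiman* (*tai*). They were found by gene name among the 23932 features of the deposited count table, and all 9 were present. RNA came from dissected *Drosophila* brains of flies 0 to 1 day old, with males and females pooled. The EmcOE flies carried the elavC155-Gal4 driver, which is active in neurons, and a UAS-emc transgene, and the Control flies came from the cross of the same driver to the white* line (n = 4 samples per group). Both groups thus carried the driver, and they differed in the crossed line as well as in the transgene. According to the study, the driver is active from embryonic stages on, strongly in the mushroom bodies and more weakly elsewhere. The comparison thus covers development as well as the adult brain. The driver acts in neurons, whereas the RNA came from whole brains that also held glia and other cells, pooled over flies in each sample. The study describes the samples of a group as biological replicates, each a pool of brains, but neither it nor the labels say whether these flies came from separate cultures, and the p-values measure the spread between these samples.

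Tgo is the fly ARNT protein. It pairs with Sim, Trh, Ss, Dysf or Sima, and the partner decides which genes the dimer binds. Met and Gce are paralogous receptors of juvenile hormone, and Tai, a coactivator of the p160 family, acts with them and with the ecdysone receptor. The study overexpressed Emc, a helix-loop-helix protein that lacks a basic domain and inhibits Daughterless (Da), a bHLH protein of another class without a PAS domain. Here the question was at what level the bHLH-PAS genes were transcribed in these brains, and whether that level differed when Emc was overexpressed.

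None of the 9 genes was called changed in EmcOE brains. Of the 9, 8 reached a mean of 20 normalized counts in EmcOE or Control brains and entered edgeR's quasi-likelihood test, where a call needed an adjusted p no larger than 0.05 and a change of 0.2 or more on the log2 scale. Among them 0 were upregulated and 0 downregulated, where 8.68% of the 9788 tested features were called (3.57% upregulated and 5.12% downregulated). An unadjusted p under 0.05 was reached by 1 of the 8, *Met*, as it was by 25.5% of all tested features. DESeq2 also called 0 of the 8, with 1 at an unadjusted p under 0.05, and 10.8% of all features called. The median log2 fold change of the 8 genes was 0.052, against 0.013 over all tested features. Of the 8, 6 had a log2 fold change above 0 and 2 below, against 53.0% of all tested features above 0. After a correction for gene length *sima* was at 0.022, *tai* at 0.0033 and *trh* at -0.027. *Met* stayed at 0.099 or more in every alternative fit. In 1 of the 8, again *Met*, the groups did not overlap, which was the case for 16.4% of all tested features.

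The samples had 20751513 to 41619980 counts, and EmcOE replicate 1 was the deepest. *emc* itself had a normalized count of 6055 ± 172 (SD, n = 4) in EmcOE and 4966 ± 155.1 in Control brains (log2 fold change 0.29, edgeR adjusted p = 0.00246), and *da* had a log2 fold change of 0.0029 (0.977). All 8 markers of neurons and all 8 of glia were detected and tested. Of the markers of other cells, 6 of 12 fat body genes were upregulated (*Fbp1*, *Fbp2*, *Lsp1alpha*, *Lsp1beta*, *Adh* and *Obp99b*), with 9 of the 12 above 0 and 3 below. The summed normalized count of the 12 overlapped between groups, 91192 to 162817 in EmcOE and 53347 to 201867 in Control samples. Of 7 tested hemocyte genes 2 (*Hml* and *NimC1*) were downregulated, with 5 of the 7 below 0 and 2 above. Of the 8 glial markers 1 (*Gs2*) was also downregulated, with 5 of the 8 below 0 and 3 above, and a median of -0.039. All 8 muscle genes had log2 fold changes below 0, from -1.37 to -0.17 with a median of -0.29 (the most abundant were *Mhc*, -0.17, and *Mlc2*, -0.36). Of the 8, 0 were called by edgeR (5 at an unadjusted p under 0.05) and 2 by DESeq2. Of the 8 neuronal markers 7 had log2 fold changes above 0 and 1 below, with a median of 0.18. By edgeR 1 of them, *fne*, was upregulated, and it lost its call after a correction for gene length (edgeR adjusted p = 0.0783). DESeq2 called 2 of the 8. Leaving out 1 sample ended the call of *Lsp1alpha* in 6 of 8 fits (edgeR adjusted p up to 0.0913) and that of *NimC1* in 4 of 8 (up to 0.0733), and that of *Gs2* ended with total counts in place of TMM (0.0712). The summed normalized count of the 8 neuronal markers was 153260 to 174015 in EmcOE and 145732 to 160735 in Control samples. That of the glial markers was 111369 to 122136 and 125062 to 128813. *Gs2*, the most abundant glial marker, had a mean of 40970 in EmcOE and 49432 in Control samples. The part of these differences in the results below was not tested. In whole brains, fewer cells of a type and less RNA per cell cannot be told apart.

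Levels were compared between genes as normalized counts per kb of exon. *sima* was the highest of the 9, with 514 ± 34.0 in EmcOE and 479 ± 19.6 in Control brains (SD, n = 4). *tgo* followed with 347 ± 6.87 and 352 ± 12.5, *Met* with 249 ± 13.6 and 225 ± 5.84, and *gce* with 186 ± 10.4 and 177 ± 8.08. *trh* had 168 ± 18.7 in EmcOE and 164 ± 17.8 in Control brains, and *tai* 168 ± 16.6 and 155 ± 10.4. *sim* was lower, with 47.0 ± 7.41 and 46.1 ± 8.96, and *ss* (5.04 ± 1.97 and 6.59 ± 0.679) and *dysf* (0.784 ± 0.571 and 1.91 ± 0.792) were near the bottom of the scale. Against all tested features, 68.6% had a lower level per kb than *sima*, 57.7% than *tgo*, 45.9% than *Met*, 14.5% than *sim* and 0.838% than *ss*. In this order, *sima*, *tgo*, *Met* and *gce* each exceeded the next gene in 8 of 8 samples except that *gce* exceeded *trh* in 6 of 8. *trh* and *tai* did not differ beyond their spread, with *trh* higher in 4 of 8 samples, and *ss* exceeded *dysf* in 8 of 8 although their ranges overlapped.

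The exon length counted for *gce* changed its place. Of its 5809 bases of exon, 40.7% lie in exons of 2 antisense RNA genes on the other strand, *asRNA:CR44961* (2197 bases shared) and *asRNA:CR44429* (167 bases). The counts were made without strand, and by default FeatureCounts leaves out pairs that lie on several features. *asRNA:CR44961* had a mean normalized count of 0.139 in EmcOE and 0.298 in Control brains, so few pairs were assigned to it in these samples. Per kb of the 3445 bases of exon that *gce* shares with no other feature, its level was 314 ± 17.5 in EmcOE and 298 ± 13.6 in Control brains (SD, n = 4), which placed *gce* above *Met* in 8 of 8 samples. *trh* shares 9.54% of its exon length with *lncRNA:CR45378*, and on unshared exon it had 185 ± 20.6 and 181 ± 19.6. *tgo* (1.61%) and *tai* (1.38%) share little, and the other 5 genes share none.

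**Figure D1:**
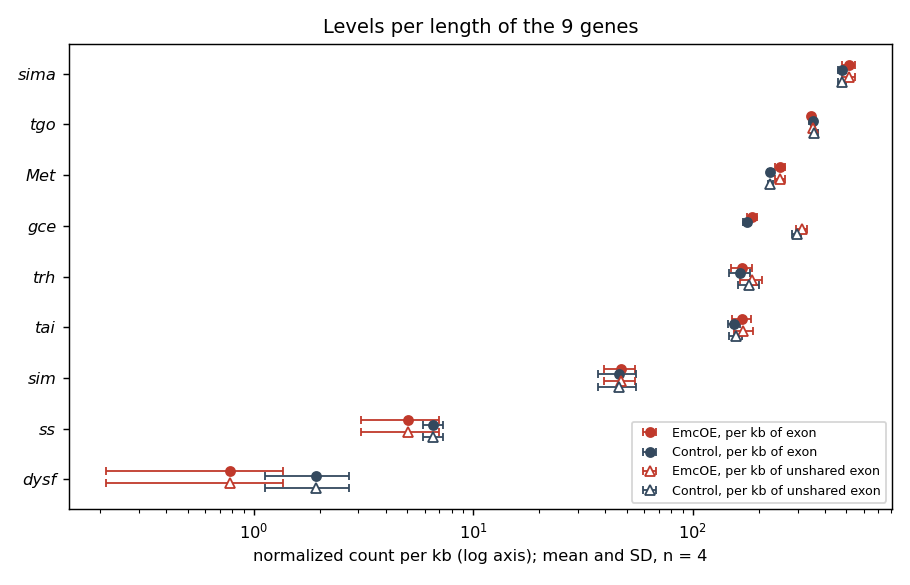
Normalized count per kb of each of the 9 genes in EmcOE and Control brains, on a log axis, as mean and SD of 4 samples; circles divide by the whole exon length and triangles by the exon shared with no other feature. The 9 genes span the range from *dysf* at 0.784 to *sima* at 514 in EmcOE brains, and *gce* alone moves far between the 2 lengths, from 186 to 314.

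*tgo* (FBgn0264075; BDGP6.32 3R, 9016773 to 9020022, minus strand), the common partner, varied little in either group. Its coefficient of variation was 1.98% in EmcOE brains, the lowest of the 9 genes, and 3.54% in Control brains, where *Met* was lower with 2.60%. Its normalized counts in replicates 1 to 4 were 1049.8, 1099, 1079 and 1089.8 in EmcOE and 1057, 1146, 1097 and 1072 in Control brains. The groups overlapped almost entirely, and the log2 fold change was -0.019 (standard error 0.048, 95% interval -0.13 to 0.087, edgeR adjusted p = 0.847), so that the interval of the fold was 0.917 to 1.06. With total counts in place of TMM it was 0.048.

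*sima* (FBgn0266411; 3R, 30058311 to 30121798, plus strand) encodes the alpha subunit of the fly hypoxia-inducible factor, which is broken down when oxygen is ample, so that its transcript need not follow its protein. Its normalized counts in replicates 1 to 4 were 3351, 3769, 3755 and 3923 in EmcOE brains. In Control brains they were 3412, 3431, 3306 and 3642. The other EmcOE samples lay above every Control sample, but EmcOE replicate 1 lay below 3 of the 4. The log2 fold change was 0.10 (standard error 0.056, interval -0.022 to 0.22, edgeR adjusted p = 0.2896). It was 0.15 without EmcOE replicate 1 (edgeR adjusted p = 0.0726) and 0.022 after a correction for gene length. Over the 8 samples, the log2 counts most like those of *sima* were those of *dom* (Pearson r = 0.96), *Rbcn-3B* (0.96) and *CG3638* (0.96), picked from 9788 features as a description.

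*trh* (FBgn0262139; 3L, 366524 to 392633, minus strand) specifies tracheal and salivary duct cells in the embryo. Its normalized counts were 806, 1037, 875 and 974 in EmcOE brains. In Control brains they were 917, 1033, 825 and 829.6. The groups overlapped throughout, and the log2 fold change was 0.030 (standard error 0.096, interval -0.18 to 0.24, edgeR adjusted p = 0.879). Transcripts of genes listed as tracheal markers were present in the same samples, but their cell of origin was not tested. All 9 tracheal markers were tested and 0 were called by edgeR or DESeq2 (2 with an unadjusted p under 0.05 in each), and their summed normalized count was 14054 to 16805 in EmcOE and 13267 to 16140 in Control samples.

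*sim* (FBgn0004666; 3R, 13057755 to 13078124, plus strand) is the master regulator of the midline cells of the embryonic nerve cord. Its normalized counts were 157, 157, 206 and 148 in EmcOE brains. In Control brains they were 163, 132, 152 and 207. EmcOE replicate 3 and Control replicate 4 were the high samples, 1 in each group. On the log2 scale the change was 0.030 (standard error 0.15, interval -0.31 to 0.37, edgeR adjusted p = 0.926), and it turned to -0.086 without EmcOE replicate 3, to -0.071 without Control replicate 2 and to -0.011 without Control replicate 3.

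*ss* and *dysf* were the least abundant. *ss* (FBgn0003513; 3R, 16374434 to 16403690, minus strand) is the fly homolog of the aryl hydrocarbon receptor, which sets the identity of the distal antenna and of R7 photoreceptor subtypes. It had 12 to 38 raw counts per sample, or normalized counts of 21.1, 14.3, 33.6 and 35.8 in EmcOE and 32.1, 33.8, 31.6 and 39.3 in Control brains. EmcOE replicates 1 and 2 lay below every Control sample, and the other EmcOE samples lay within the Control range. The log2 value of the change was -0.39, with an interval on both sides of 0 (standard error 0.29, interval -1.03 to 0.25, edgeR adjusted p = 0.434).

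*dysf* (FBgn0039411; 3R, 26076592 to 26098711, minus strand), which acts in tracheal fusion cells, had 1 to 12 raw counts and was not tested. Its normalized counts were 6.68, 1.19, 2.04 and 3.35 in EmcOE brains. In Control brains they were 6.64, 6.55, 6.07 and 13.1. The Control samples were higher except that EmcOE replicate 1 reached them, and in the fit without a minimum count the log2 fold change was -1.12 (standard error 0.59, interval -2.36 to 0.12, edgeR adjusted p = 0.366).

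Among the possible partners of Tgo, *sima* made up most of the transcripts. Of the summed level per kb of the 5 partner genes, *sima* held 69.99% ± 0.744 in EmcOE and 68.7% ± 1.22 in Control brains (SD, n = 4). *trh* held 22.8% ± 1.499 and 23.5% ± 2.38, and *sim* 6.42% ± 1.05 and 6.59% ± 1.14. *ss* held 0.684% ± 0.249 and 0.943% ± 0.0676, and *dysf* 0.111% ± 0.0894 and 0.272% ± 0.103. The level of *tgo* was 0.474 times the summed level of its partners in EmcOE and 0.504 times in Control brains. The difference in the log2 ratio was -0.091 (exact two-sided permutation test, p = 0.143, adjusted over 3 ratios 0.214; the smallest p that 4 against 4 samples allow is 0.0286). EmcOE replicates 2 to 4 lay below every Control sample and EmcOE replicate 1 lay within the Control range.

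**Figure D2:**
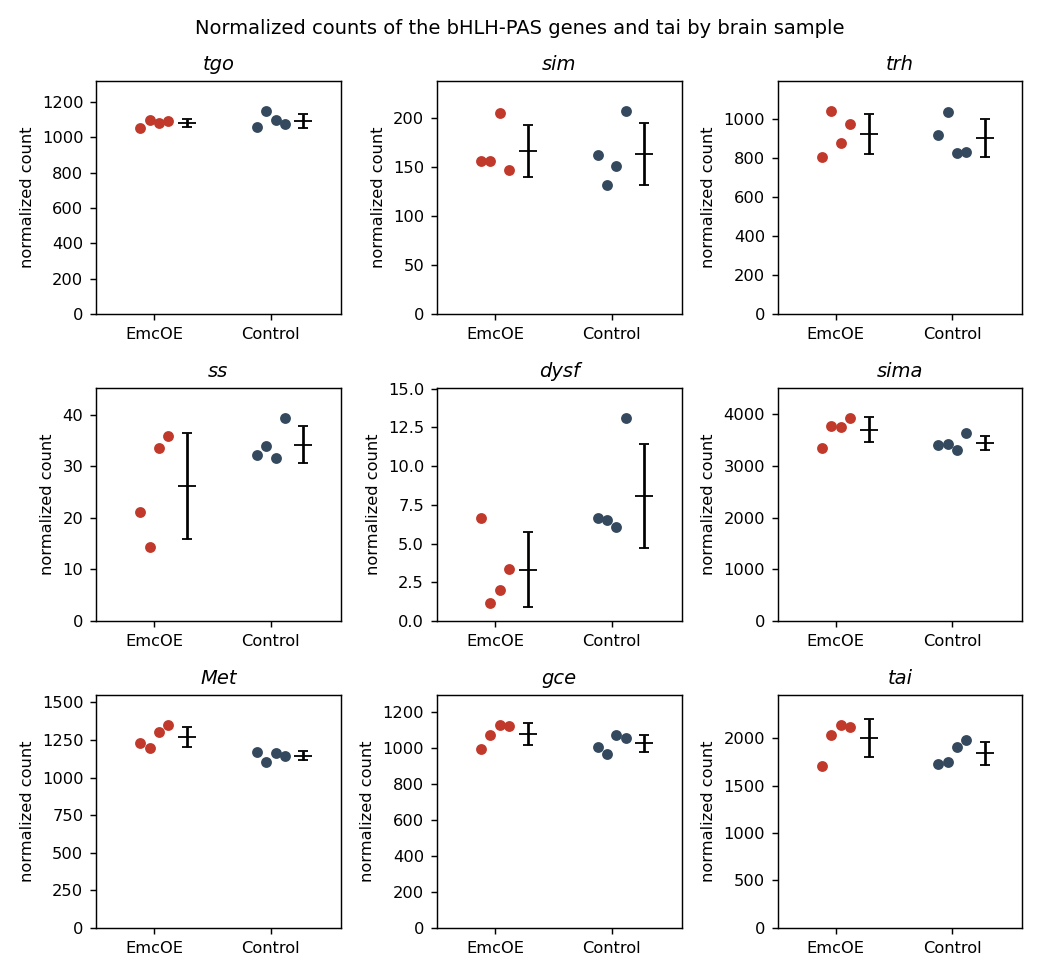
Normalized counts of each gene in the 4 EmcOE and 4 Control brain samples (points, in the order of replicates 1 to 4), with mean and SD beside them; every axis starts at 0. Only *Met* has all 4 EmcOE samples, 1199 to 1349, above all Control samples, 1102 to 1169.

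Of the juvenile hormone receptors, *Met* (FBgn0002723; X, 11616124 to 11621280, plus strand) showed the clearest difference. Its normalized counts in replicates 1 to 4 were 1227, 1199, 1303 and 1349 in EmcOE and 1169, 1102, 1160.3 and 1146 in Control brains. Every EmcOE sample lay above every Control sample, as was the case for 8.51% of all tested features. The log2 fold change of *Met* was 0.15 (standard error 0.052, interval 0.033 to 0.27, unadjusted p = 0.0166, edgeR adjusted p = 0.105), and the interval of the fold was 1.02 to 1.20. It was not called in any of the 19 alternative fits, in which its log2 fold change was 0.099 to 0.22 and its adjusted p 0.0842 to 0.2698.

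*gce* (FBgn0261703; X, 15297766 to 15319074, plus strand), the paralog of *Met*, had normalized counts of 998, 1076, 1129.7 and 1122 in EmcOE brains. In Control brains they were 1007, 971, 1073 and 1058. Replicates 2 to 4 of EmcOE lay above every Control sample and replicate 1 lay below 3 of the 4. The log2 fold change was 0.073 (standard error 0.059, interval -0.057 to 0.20, edgeR adjusted p = 0.471). Over the 19 alternative fits it was 0.013 to 0.14. The ratio of *Met* to *gce* per kb of exon was 1.34 in EmcOE and 1.27 in Control brains, and on unshared exon 0.795 and 0.755. On either length the difference in the log2 ratio was 0.074, which was within the spread between samples (exact two-sided permutation test, p = 0.143, adjusted over 3 ratios 0.214).

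*tai* (FBgn0041092; 2L, 9166778 to 9250211, plus strand), with 11910 bases of exon the longest of the 9, had normalized counts of 1710.2, 2034, 2138 and 2116 in EmcOE brains. In Control brains they were 1723, 1750.4, 1908 and 1979. Replicates 2 to 4 of EmcOE were the highest 3 of the 8 samples and replicate 1 was the lowest. On the log2 scale the change was 0.12 (standard error 0.076, interval -0.051 to 0.29, edgeR adjusted p = 0.365). Without EmcOE replicate 1 it was 0.19 (edgeR adjusted p = 0.0669), and after the correction for gene length it was 0.0033. The level of *tai* per kb was 0.384 times that of *Met* and *gce* together in both groups (difference in log2 ratio 0.00060, exact two-sided permutation test, p = 1.000).

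**Figure D3:**
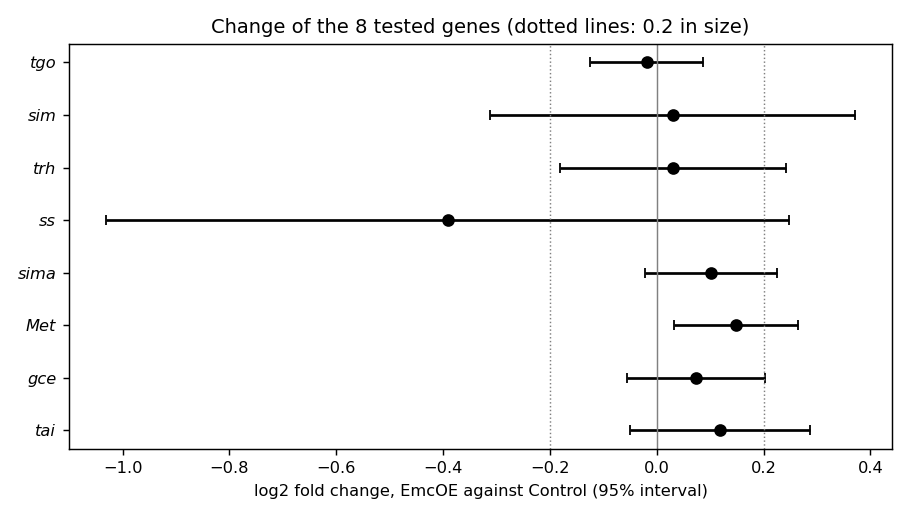
Log2 fold change of the 8 tested genes between EmcOE and Control brains from the edgeR fit over all features, with 95% intervals from 4 samples per group; dotted lines mark 0.2 in size. Only the interval of *Met*, 0.033 to 0.27, lies above 0, and that of *ss*, -1.03 to 0.25, is the widest.

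**Figure D4:**
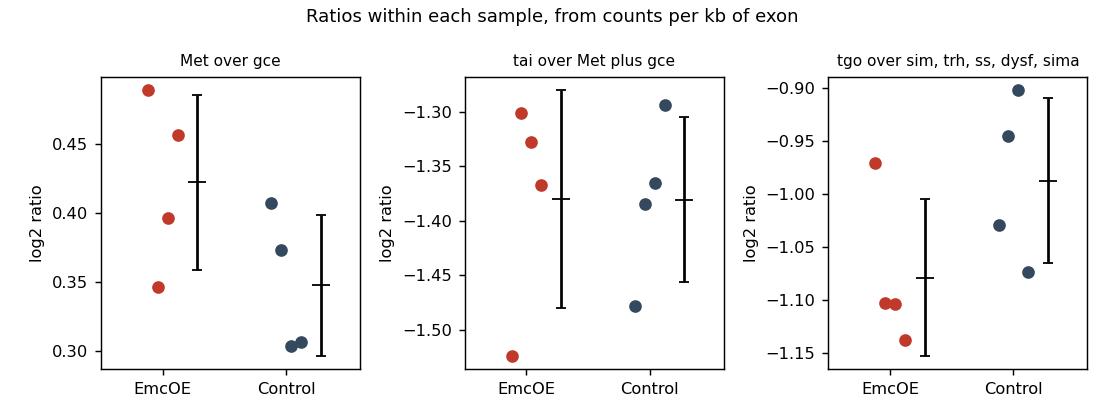
Log2 ratios of levels per kb of exon within each of the 8 samples (points), with mean and SD of the 4 EmcOE and 4 Control samples; the axes do not start at 0. The groups overlap in each of the 3 ratios, and the mean differences are 0.074, 0.00060 and -0.091.

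The pathways in which these factors act were examined through lists of 92 distinct genes, of which 90 were found by symbol and 84 tested. Of the 84, 4 were upregulated and 5 downregulated, or 10.7%, beside the 8.68% of all tested features, and their median log2 fold change was 0.039. The remaining bHLH-PAS genes are those of the clock, *Clk* and *cyc*, with *per*, which has a PAS domain alone. Of these 3, 0 were called by edgeR or by DESeq2, and an unadjusted p under 0.05 was reached by 1 with edgeR, *cyc*, and by 1 with DESeq2. The log2 fold change was 0.16 for *Clk* (edgeR adjusted p = 0.3695), -0.16 for *cyc* (0.176) and -0.028 for *per* (0.897).

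Among 13 tested genes of juvenile hormone synthesis, breakdown and response, 1 was upregulated and 1 downregulated, and the median log2 fold change was 0.011. *br*, a zinc finger factor of metamorphosis that is also in the ecdysone list, had 1593 ± 138 in EmcOE and 1267 ± 111 in Control brains (SD, n = 4; log2 fold change 0.33, edgeR adjusted p = 0.0275). *JhI-21*, a hormone-inducible gene that encodes an amino acid transporter, had 742 ± 61.8 and 1000.5 ± 73.6 (log2 fold change -0.43, edgeR adjusted p = 0.00644). *Kr-h1*, the best known direct target of Met and Gce, had 391 ± 44.7 and 388 ± 43.8 (log2 fold change 0.011, edgeR adjusted p = 0.960). *JhI-21* was called in all 8 fits that left out 1 sample, whereas *br* was lost without EmcOE replicate 2, 3 or 4 or Control replicate 1 or 2 (adjusted p up to 0.0760). After the correction for gene length the log2 fold change of *br* fell under the threshold, to 0.19. *Jheh1* and *Jheh2*, juvenile hormone epoxide hydrolases, had no count in any sample. Their exon overlap with other features was not checked, so the lack of counts need not mean that they were not transcribed. Of the 6 genes listed as markers of the corpora allata and ring gland, 4 were tested, 2 above 0 and 2 below. Whether their counts came from these glands was not tested. The ecdysone synthesis gene *sad* was the 1 called, upregulated (log2 fold change 1.74, edgeR adjusted p = 0.00239). *Cyp6g2*, also in the juvenile hormone list, had a log2 fold change of -0.69 and was not called (edgeR unadjusted p = 0.0476, adjusted p = 0.191). *dib* had no count, and its exon overlap was likewise not checked. The summed normalized count of these 6 markers was 675 to 1469 in EmcOE and 694 to 1279 in Control samples. The most abundant of the 6 was *Akh*, a peptide hormone gene, so the sum is not one of juvenile hormone and ecdysone synthesis genes alone.

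Of 11 tested genes of the hypoxia pathway, 1 was upregulated and 2 were downregulated, with a median log2 fold change of -0.049. *chrb*, which restrains TOR signalling and responds to hypoxia, rose from 10881 ± 366 in Control to 12962 ± 136 in EmcOE brains (SD, n = 4; log2 fold change 0.25, edgeR adjusted p = 0.00531). *Pdk*, pyruvate dehydrogenase kinase, fell from 3703 ± 133 to 3175 ± 115 (log2 fold change -0.22, edgeR adjusted p = 0.0129). *Thor*, the translation inhibitor 4E-BP, fell from 1969.8 ± 189 to 1347 ± 309 (log2 fold change -0.54, edgeR adjusted p = 0.0385). *Hph*, the prolyl hydroxylase that marks Sima for breakdown, had 1401 ± 80.5 in EmcOE and 1449 ± 79.8 in Control brains (log2 fold change -0.049, edgeR adjusted p = 0.641). *chrb* was called in all 8 fits without 1 sample and *Pdk* in 7 of 8 (-0.198 without EmcOE replicate 4), but *Thor* only without EmcOE replicate 1, with adjusted p up to 0.112 in the others. *Thor* also lost its call with edgeR's robust option (adjusted p = 0.0924) and with a replicate block (0.0571, and 0.0696 in DESeq2). After the length correction *chrb* fell under the fold threshold, at 0.19, and with total counts *Pdk* lost its call (log2 fold change -0.15, edgeR adjusted p = 0.173).

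None of 15 tested tracheal genes was called by edgeR or DESeq2, and 4 had an unadjusted p under 0.05 with each tool, those of edgeR all above 0. Their median log2 fold change was 0.069, and all 9 tracheal markers are among them. The fibroblast growth factor receptor gene *btl*, a target of Trh, had 670.0 ± 81.8 in EmcOE and 637 ± 45.4 in Control brains (log2 fold change 0.069, edgeR adjusted p = 0.682). The most abundant of the list were *Gasp*, a chitin-binding protein gene (log2 fold change 0.11, edgeR adjusted p = 0.498), and *stumps* (-0.13, 0.266).

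Of 15 tested midline genes, 1, *Egfr*, was downregulated, from 959.96 ± 81.8 in Control to 786 ± 61.8 in EmcOE brains (SD, n = 4; log2 fold change -0.29, edgeR adjusted p = 0.0437). It was called in only 2 of 8 fits without 1 sample, those without EmcOE replicate 4 or Control replicate 3 (adjusted p up to 0.114 in the others), and not with total counts (edgeR adjusted p = 0.158). The axon guidance receptor gene *robo3* had an adjusted p of 0.0336 from edgeR with a log2 fold change of 0.18, under the threshold. The median log2 fold change of the list was 0.076.

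Of 13 tested genes of the R7 and R8 photoreceptor subtypes, 1 was downregulated. This was *melt*, which opposes *wts* in the choice of R8 subtype, with 206 ± 9.40 in EmcOE and 277 ± 23.4 in Control brains (SD, n = 4; log2 fold change -0.43, edgeR adjusted p = 0.0117, or 0.0553 with total counts). *wts* had a log2 fold change of 0.19, under the threshold, with an adjusted p of 0.03096 from edgeR. The opsin genes of R7 cells, *Rh4*, which Ss turns on, and *Rh3*, differed by -0.086 (edgeR adjusted p = 0.497) and -0.12 (0.289) on the log2 scale. Photoreceptor transcripts were abundant in these samples. All 14 photoreceptor markers, of which *ninaE* (log2 fold change -0.071) and *Arr2* (-0.064) were the most abundant, were tested. Of the 14, which include *Rh3* and *Rh4* themselves, 12 had log2 fold changes below 0 and 2 above, with a median of -0.087. Most of the other markers were thus below 0 as well. By edgeR or DESeq2 0 were called (2 with an unadjusted p under 0.05 in each). The summed normalized count of the 14 was 785501 to 861963 in EmcOE and 828480 to 974668 in Control samples.

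Of 20 tested genes of the ecdysone receptor, its response and the partners of Tai, 3 were upregulated and 0 downregulated by edgeR and by DESeq2 (0 fell at an unadjusted p under 0.05), with a median log2 fold change of 0.055. Beside *br* these were the nuclear receptor gene *Eip78C*, with 2563 ± 203 in EmcOE and 2076 ± 116 in Control brains (SD, n = 4; log2 fold change 0.30, edgeR adjusted p = 0.0152), and *nej*, the acetyltransferase CBP, with 3634 ± 262 and 3063 ± 149 (log2 fold change 0.25, edgeR adjusted p = 0.02900). *Eip78C* was called in all 8 fits that left out 1 sample. *nej* was lost without EmcOE replicate 2, 3 or 4 or Control replicate 1 or 2, and its log2 fold change was 0.11 after the correction for gene length. For the receptor genes themselves, *EcR* and *usp*, the log2 fold changes were 0.15 (edgeR adjusted p = 0.206) and 0.036 (0.748). *sd*, which pairs with Yki, had 0.15 with an adjusted p of 0.0489 from edgeR, under the fold threshold.

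**Figure D5:**
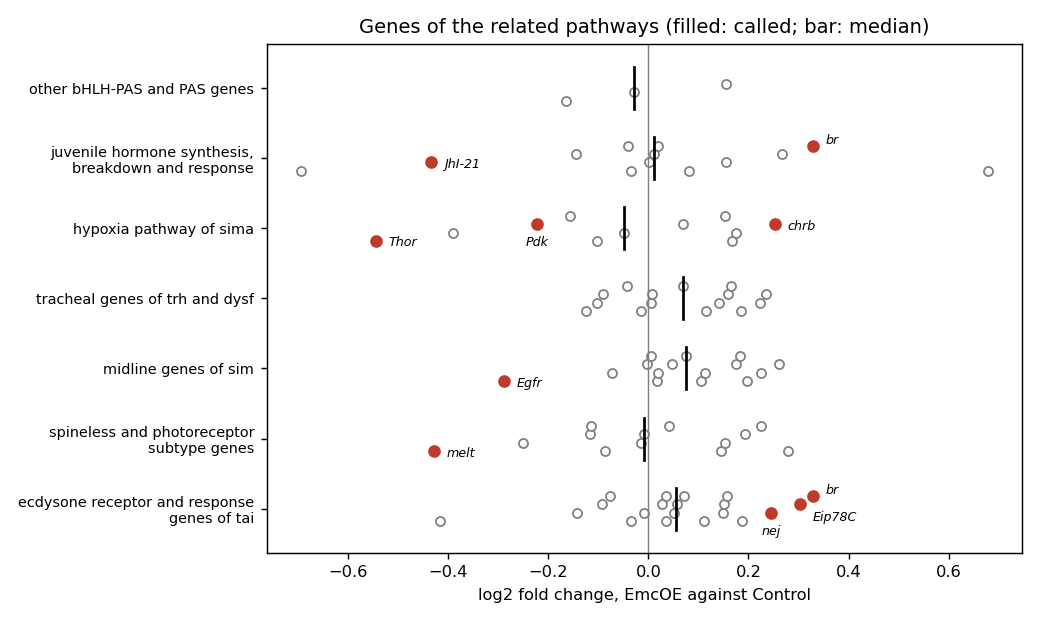
Log2 fold change of each tested gene of 7 lists between EmcOE and Control brains; filled points passed both thresholds of the edgeR test, open points did not, and bars mark the median of each list. The medians lie between -0.049 and 0.076, and *br* stands in both hormone lists.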

How the data were processed

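Brain RNA was sequenced as unstranded poly(A) libraries of paired reads. The deposited values are raw counts of read pairs per feature: the authors trimmed reads with BBDuk, mapped them to BDGP6.32 with STAR (2.7.4a, in 2 passes) and counted with FeatureCounts (2.0.1), keeping pairs with both ends mapped. The deposited table also gives exon coordinates and lengths.

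The software was edgeR 4.0.16 under R 4.3.3, with DESeq2 1.42.0 as an alternative. Normalized counts are counts divided by the TMM effective library size and multiplied by its mean. The quasi-likelihood test of edgeR was run on every feature that averaged 20 or more normalized counts in either group, and p-values were adjusted over all of them (Benjamini-Hochberg). The study used DESeq2 and names no design formula, so no replicate term was fitted. Standard errors are the fold change over the square root of F. Ratios were log2 values with a pseudocount of 0.5, compared by exact permutation over 70 assignments. For the length correction, a lowess trend on length (span 0.3) was taken out of every sample. The fit was tested on data simulated with log2 changes of 0.5 or more in size, larger than that of any tested member. The simulation thus does not show whether changes as small as those of the members would be called.

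The members and gene lists were chosen with earlier results of these data known. All 9 members, *emc*, *da* and called genes of each list were named, otherwise the 2 most abundant, with the 3 features most like the most abundant member. *Clk*, *Kr-h1*, *Hph*, *EcR*, *usp*, *btl*, *Rh3*, *Rh4*, *robo3*, *wts*, *sd*, *Jheh1*, *Jheh2*, *dib*, *Cyp6g2* and *Akh* were named after their values were seen. Gene sequences were not used here.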

Additional observations from a re-analysis of the deposited data

Results flagged for a closer look

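In 2 of 106 groups of 4 samples checked, 1 sample stood apart from the others, and chance flags about 1 in 20 groups. The normalized count of *sim* was 206 in EmcOE replicate 3 and 148 to 157 in the other EmcOE samples. The normalized count of *dysf* was 13.1 in Control replicate 4 and 6.07 to 6.64 in the other Control samples, from 11 raw counts.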

How the results depend on the processing

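No member was called in any of 20 alternative settings, and *emc* was called in the 19 that refitted it. The members with the fewest counts were *ss* (12 to 38) and *dysf* (1 to 12), and *dysf* could be fitted only without a minimum count. *ss* had no value at a minimum of 100. Levels per unshared exon were an alternative chosen after seeing the data. Features upregulated numbered 204 to 465 and downregulated 323 to 513 when 1 sample was left out. Total counts in place of TMM gave 278 downregulated features, 1 downregulated hypoxia gene and 0 downregulated midline genes. They also gave 2 upregulated and 0 downregulated photoreceptor subtype genes. The median log2 fold change over all tested features was then 0.080, against 0.013 in the main fit. The cause of these differences was not tested.

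Same-numbered samples did not deviate together (correlations -0.49, 0.15, 0.032 and -0.21 for replicates 1 to 4, with 1 of 4 samples closest to its own number). The replicate block gave 326 upregulated and 487 downregulated features, 0 members, 2 downregulated juvenile hormone genes, 1 downregulated hypoxia gene and 1 downregulated ecdysone gene. Paired sign flips, whose smallest p is 0.125, gave an exact p of 0.25 for *tgo* to its partners and for *Met* to *gce*. DESeq2 gave 1 upregulated photoreceptor subtype gene.

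Leaving out 1 sample gave 0 to 1 upregulated juvenile hormone genes, 1 to 2 upregulated and 0 to 2 downregulated hypoxia genes, 0 to 2 upregulated and 0 to 1 downregulated midline genes, 0 to 2 upregulated photoreceptor subtype genes, and 1 to 4 upregulated and 0 to 1 downregulated ecdysone genes. The log2 ratio of *tai* to *Met* plus *gce* then ranged from -0.032 to 0.049.

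Log2 fold changes near 0 changed sign without a call. With total counts these were *tgo* (0.048), *per* (0.036), *Arr2* (0.0059) and *Hph* (0.020). With the length correction they were *trh* (-0.027, and -0.024 with the block), *Kr-h1* (-0.043 and -0.041) and *da* (-0.017 and -0.017). For *da*, at 0.0029 in the main model, they were also -0.0034 with DESeq2 size factors, -0.0032 and -0.0030 with minimum counts of 10 and 100, -0.0013 with no minimum, and -0.0043 and -0.0042 with DESeq2 without and with the block. When 1 sample was left out, the ranges were -0.086 to 0.16 for *sim*, -0.037 to 0.095 for *trh*, -0.025 to 0.028 for *da*, -0.11 to 0.079 for *per*, -0.10 to 0.014 for *Arr2*, -0.038 to 0.091 for *Kr-h1*, -0.0089 to 0.061 for *usp* and -0.020 to 0.11 for *btl*.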
